A study of Mus musculus with 16 samples.

Results

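The interferon-stimulated genes described here are 41 mouse genes whose transcripts are induced by interferon, among 54532 genes in the table of uninjected retinas and 48440 in the table of injected retinas. They were listed by name, without class I or class II histocompatibility genes and without chemokines, and all 41 were found in both tables. They had been singled out because many of them were lower after injection of a fatty acid and because they varied among the injected libraries. The values of that contrast and of those 6 libraries are therefore a description. Counts of members past a threshold in that contrast are given as part of it, and are not independent evidence. The uninjected libraries took no part in that choice, and their comparisons were tested.

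RNA was taken from whole mouse retinas (C57BL6/J per the series design), which gave 16 libraries. The injected retinas came from wildtype mice aged 18 months and were taken 5 days after the vitreous was injected. The treated eye received 0.36 nmol of 24:5, a polyunsaturated fatty acid with 24 carbons and 5 double bonds (n = 3), and the vehicle libraries come from the other eye (n = 3). No injection was given to the other retinas, 4 from 18-month wildtype mice, 3 from 12-month Elovl2 mutants and 3 from 12-month wildtype mice. Elovl2 encodes an elongase of long polyunsaturated fatty acids. The mutation appears as C234W in the design text but as C34W among the genotype labels, and values per gene cannot check it. Which retinas share an animal is not labelled, nor whether every library has an animal of its own. The p-values thus cover the spread among these libraries, part of which may be technical.

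Interferons are secreted proteins that signal through receptors on the cell surface and the kinases JAK1, JAK2 and TYK2. Type I and III interferons activate a complex that includes STAT2 and IRF9 and binds the interferon-stimulated response element in the promoters of its target genes. Genes that answer interferon gamma often carry another short motif, the gamma-activated site. The induced proteins detect foreign nucleic acid, block translation or replication of viruses, and tag proteins with ubiquitin or the ubiquitin-like ISG15. In the retina, microglia, Müller glia, vascular cells and neurons can all express such genes.

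The count libraries held 22066668 to 25609242 counts, and the FPKM libraries gave back 12810558 to 30519417 reads. Sag, the rod arrestin and a marker of photoreceptors, was at 3684 to 4932 CPM (counts scaled to library size) in the injected libraries and at 505.9 to 607.1 FPKM in the uninjected ones. Some injected libraries stood apart before any member was considered. The 12 listed lens genes, which mark a neighbouring tissue, summed to 731.5, 139.1 and 61.9 CPM in the 24:5 libraries of replicates 1, 2 and 3, against 1817, 1944 and 138.5 CPM in the vehicle libraries of replicates 1, 2 and 3. The 14 listed genes of the retinal injury response, including Gfap and Edn2, summed to 756.3, 2423 and 2194 CPM in the 24:5 libraries, against 2380, 1848 and 2756 CPM in the vehicle libraries. Thus 24:5 replicate 1 was low for injury genes, and vehicle replicate 3 and 24:5 replicates 2 and 3 were low for lens genes.

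The promoter sequences of 32 of the 41 members were taken from RefSeq (GRCm38.p6, the assembly named mm10), as windows of 250 bases before to 50 bases after each annotated start. The core of the interferon-stimulated response element, spelled GAAA, any 2 bases, GAAA, was read on both strands. TTCNNNGAA, the core of the gamma-activated site, reads the same on both strands. The response element core was present in 17 of the 32 members (53.1%) and in 1079 of all 27025 genes with such a window (3.99%). On the strand of the gene alone it was present in 7 members (21.9%), beside 2.06% of all genes. TTCNNNGAA was present in 8 of the 32 members (25.0%), beside 9.55% of all genes. Both were present in 5 members, Bst2, Eif2ak2, Gbp7, Igtp and Oas1a (15.6%, beside 0.614% of all genes). Neither was present in 12 members, among them Irf9, Irf7, Trim25, Oasl2 and Rnf213. These matches are letters in a window and do not show binding.

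**Figure D1:**
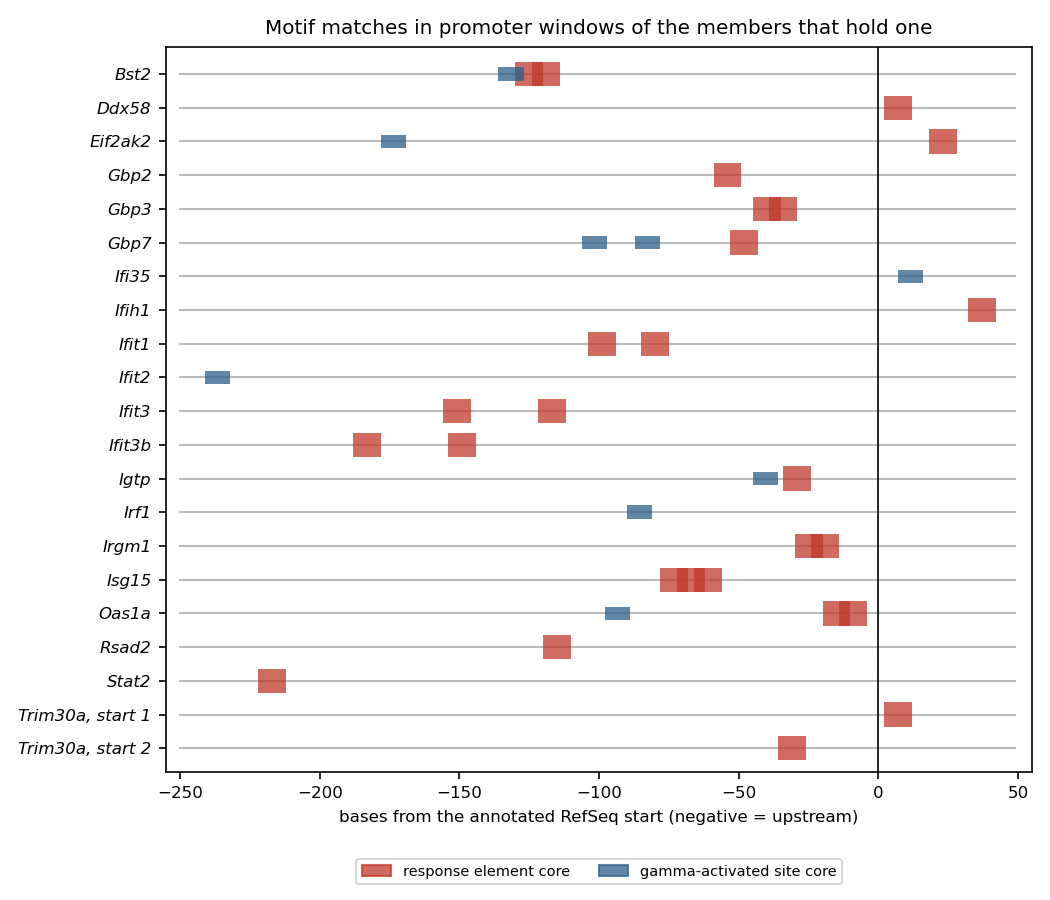
Positions of motif matches in the promoter windows of the members that hold at least 1 match, in bases from the RefSeq start (negative values lie upstream). Tall red boxes mark the response element core and short blue boxes the gamma-activated site core; grey lines are the windows, and Trim30a has 2 of them with a match. Several matches lie within the last 50 bases before the start, as in Irgm1, Gbp3 and Oas1a.

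The windows of 6 members are shown, with motif matches in capitals and other bases in lower case, each read along the strand of its gene. Ifit1 and Rnf213 are the members past the threshold after 24:5, Isg15 holds the densest run of matches among these 6, Igtp and Irgm1 are members that varied widely between injected libraries, and Irf1 is a signalling factor whose window holds a gamma-activated site core alone. The windows lie at chr19:34640639-34640938 (plus strand) for Ifit1, chr4:156200769-156201068 (minus) for Isg15, chr11:58199306-58199605 (plus) for Igtp, chr11:48871371-48871670 (minus) for Irgm1, chr11:53769764-53770063 (plus) for Irf1 and chr11:119389849-119390148 (plus) for Rnf213.
Ifit1: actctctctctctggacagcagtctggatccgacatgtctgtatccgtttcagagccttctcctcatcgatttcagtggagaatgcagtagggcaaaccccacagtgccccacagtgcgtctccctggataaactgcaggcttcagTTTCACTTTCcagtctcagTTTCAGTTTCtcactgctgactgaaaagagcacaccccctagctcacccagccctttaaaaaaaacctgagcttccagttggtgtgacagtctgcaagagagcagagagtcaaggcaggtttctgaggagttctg
Isg15: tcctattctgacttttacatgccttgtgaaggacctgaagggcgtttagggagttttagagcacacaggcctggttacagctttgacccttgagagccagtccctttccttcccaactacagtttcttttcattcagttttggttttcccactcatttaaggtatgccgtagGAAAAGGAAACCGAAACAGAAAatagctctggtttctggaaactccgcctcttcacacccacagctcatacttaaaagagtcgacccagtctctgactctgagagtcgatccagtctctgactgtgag
Igtp: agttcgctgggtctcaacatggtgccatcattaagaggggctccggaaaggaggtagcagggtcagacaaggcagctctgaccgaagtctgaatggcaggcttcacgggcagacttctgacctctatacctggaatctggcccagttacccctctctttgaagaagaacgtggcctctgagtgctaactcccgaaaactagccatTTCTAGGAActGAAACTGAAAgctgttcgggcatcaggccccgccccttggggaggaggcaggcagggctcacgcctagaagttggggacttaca
Irgm1: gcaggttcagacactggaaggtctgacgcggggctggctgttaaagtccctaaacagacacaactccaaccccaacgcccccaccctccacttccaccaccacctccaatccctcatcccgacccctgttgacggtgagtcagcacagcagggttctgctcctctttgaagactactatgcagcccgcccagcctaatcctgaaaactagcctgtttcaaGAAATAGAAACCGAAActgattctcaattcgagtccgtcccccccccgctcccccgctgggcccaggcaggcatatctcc
Irf1: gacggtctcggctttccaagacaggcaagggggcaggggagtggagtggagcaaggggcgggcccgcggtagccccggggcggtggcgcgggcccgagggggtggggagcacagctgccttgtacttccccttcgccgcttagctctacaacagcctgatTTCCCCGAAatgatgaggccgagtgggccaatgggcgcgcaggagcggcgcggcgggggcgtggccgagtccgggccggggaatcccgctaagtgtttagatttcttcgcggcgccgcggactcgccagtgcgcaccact
Rnf213: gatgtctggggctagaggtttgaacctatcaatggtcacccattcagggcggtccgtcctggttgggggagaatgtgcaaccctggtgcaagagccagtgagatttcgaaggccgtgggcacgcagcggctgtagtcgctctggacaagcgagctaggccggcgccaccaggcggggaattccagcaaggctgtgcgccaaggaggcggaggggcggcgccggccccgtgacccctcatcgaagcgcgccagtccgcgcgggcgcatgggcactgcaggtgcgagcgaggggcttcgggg
Ifit1 held 2 response element cores, both read on the opposite strand, beginning 104 and 85 bases upstream. Isg15 held 3 that overlap each other, beginning 78, 72 and 66 bases upstream. Irgm1 held 2 that overlap, and Igtp held 1 response element core 34 bases upstream and 1 gamma-activated site core 45 bases upstream. Irf1 held 1 gamma-activated site core, 90 bases upstream. In the Rnf213 window there was no match, and its RefSeq start lies upstream of the gene start given in the deposited table.

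The first question was how the members differed between 24:5 and vehicle retinas. Levels are TMM-normalised CPM, and log2 fold changes come from an edgeR quasi-likelihood fit over all 17466 genes that passed a filter on low counts, which all 41 members passed. Standard errors (SE) in this contrast were derived as the absolute log2 fold change over the square root of the F statistic of that fit. The log2 fold change was below 0 in 39 of the 41 members, beside 49.2% of all genes tested. The member median was -0.84, beside 0.003 for all genes tested. All 3 24:5 libraries lay below all 3 vehicle libraries in 26 members (63.4%), beside 6.77% of all genes, and in no member did they all lie above, beside 4.82%. Of the 41, 2 members passed the adjusted threshold of 0.05, both lower, and they were the only 2 of the 17466 genes to do so (0.0115%). They were Rnf213 and Ifit1. Because this contrast chose the members, these shares describe them and support nothing further.

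The result did not rest evenly on the libraries. The count below 0 was 36 without 24:5 replicate 1, 36 without vehicle replicate 3, and 40 or 41 when any other injected library was left out. The member median lay between -0.888 and -0.709 over those 6 fits. The number of members past the threshold was 4 without vehicle replicate 3 (9.76%, beside 0.584% of all genes). It was 1 without 24:5 replicate 1 (2.44%, beside 0.00559%), and 0 without any of the other 4 libraries (beside 0.0%). DESeq2 on the same counts called 14 members (34.1%, beside 1.12% of all genes).

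**Figure D2:**
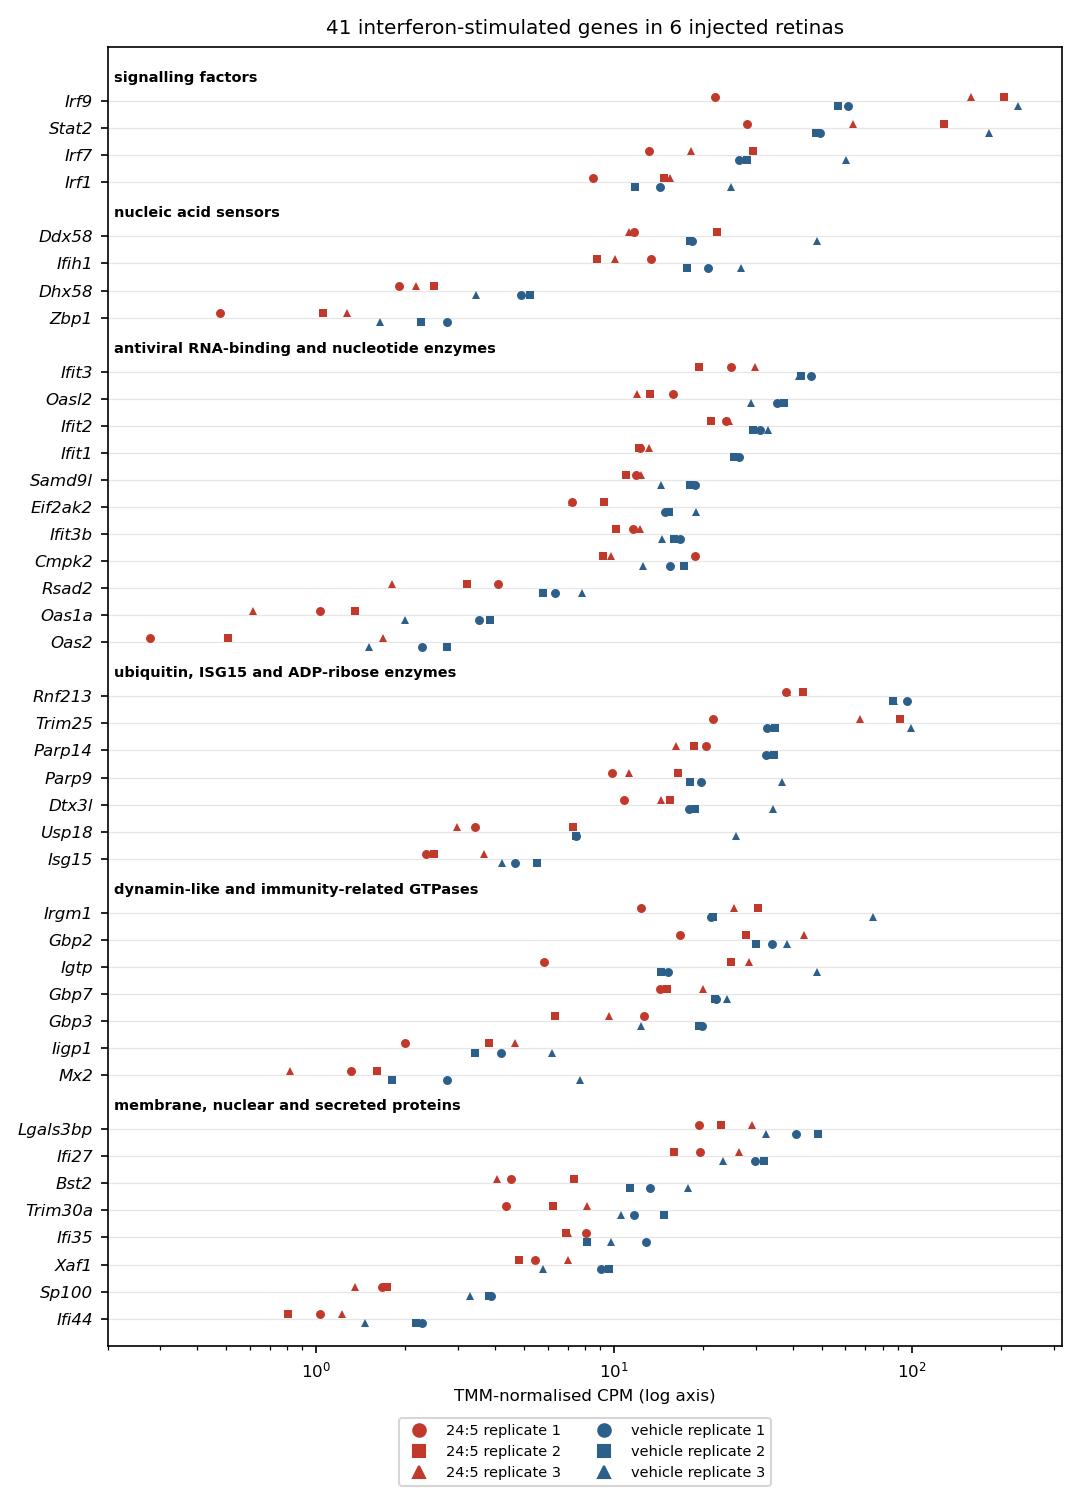
TMM-normalised CPM (log axis) of the 41 members in each injected library, grouped by role and ordered within a role by the vehicle mean. Red symbols (upper in each row) are 24:5 retinas and blue symbols (lower) vehicle retinas, with a circle, square and triangle for replicates 1, 2 and 3. The red symbols lie left of the blue in 26 members, while in the signalling factors the groups are mixed.

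The signalling factors, which act as transcription factors in the interferon response, were the role in which no member separated the groups (0 of 4). Irf9 (ENSMUSG00000002325, chromosome 14, 55603571 to 55610030, plus strand, mm10), the DNA-binding subunit of the complex, was at 22.0, 205 and 158 CPM in 24:5 replicates 1, 2 and 3, against 61.4, 56.7 and 228 CPM in vehicle replicates 1, 2 and 3. The groups overlapped, with 1 low 24:5 library and 1 high vehicle library, and the log2 fold change was 0.15 (SE 0.98). Stat2 (chromosome 10), its partner, was at 28.1, 129 and 63.5 CPM in 24:5 libraries, against 49.2, 47.8 and 182 CPM in vehicle libraries. The order of the libraries was like that of Irf9, and the log2 fold change was -0.34 (SE 0.81).

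Irf7, a factor that drives interferon genes themselves, was at 13.1, 29.3 and 18.1 CPM in 24:5 libraries, against 26.3, 28.1 and 60.4 CPM in vehicle libraries. Irf1, a factor induced most strongly by interferon gamma, was at 8.55, 14.8 and 15.5 CPM in 24:5 libraries, against 14.35, 11.75 and 24.8 CPM in vehicle libraries. In both genes 24:5 replicate 1 was the lowest of the 6 and vehicle replicate 3 the highest, and the groups overlapped. Their log2 fold changes were -0.92 (SE 0.455) and -0.39 (SE 0.34).

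The nucleic acid sensors, which start interferon production on meeting foreign RNA or DNA, were lower in 24:5 retinas in all 4 members and without overlap in 3. The median of their log2 fold changes was -1.03. Ifih1, which encodes the double-stranded RNA sensor MDA5, was at 13.3, 8.80 and 10.1 CPM in 24:5 libraries, against 20.7, 17.6 and 26.7 CPM in vehicle libraries. Zbp1, a sensor of Z-form nucleic acid, was at 0.477, 1.06 and 1.27 CPM in 24:5 libraries, against 2.75, 2.26 and 1.64 CPM in vehicle libraries. Both genes kept the groups apart, and the means in 24:5 retinas were 49.7% and 42.2% of those in vehicle retinas. Dhx58, a relative of these sensors that adjusts their activity, was also without overlap, at 48.4% of the vehicle mean. Ddx58, which encodes RIG-I, overlapped: it was at 11.7, 22.2 and 11.3 CPM in 24:5 libraries, against 18.3, 18.0 and 48.1 CPM in vehicle libraries.

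The antiviral RNA-binding proteins and nucleotide enzymes were the largest role and were lower in all 11 members, without overlap in 9, with a median log2 fold change of -1.03. Ifit1 (ENSMUSG00000034459, chromosome 19, 34640871 to 34650009, plus strand), which binds viral RNA that lacks the host's cap methylation, was at 12.3, 12.2 and 13.2 CPM in 24:5 libraries, against 26.3, 25.4 and 25.3 CPM in vehicle libraries. The spread within each group was small beside the gap between them, and the log2 fold change was -1.03 (SE 0.09). Ifit1 fell to 12.55 ± 0.548 CPM in 24:5 retinas, against 25.65 ± 0.53 CPM in vehicle retinas (SD, n = 3 each). The 3 neighbours of Ifit1 in the same cluster on chromosome 19, Ifit2, Ifit3 and Ifit3b, were lower without overlap as well, by less. Ifit2 was at 23.9, 21.2 and 24.3 CPM in 24:5 libraries, against 30.9, 29.3 and 32.9 CPM in vehicle libraries. Ifit3 was at 24.85, 19.3 and 29.8 CPM in 24:5 libraries, against 46.0, 42.4 and 41.9 CPM in vehicle libraries. Ifit3 and Ifit3b are nearly identical copies, so how the counting divided reads between them is uncertain.

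Oasl2, a relative of the oligoadenylate synthetases, was at 15.8, 13.3 and 11.95 CPM in 24:5 libraries, against 35.3, 37.3 and 28.9 CPM in vehicle libraries, a log2 fold change of -1.31 (SE 0.14). Oas2, a synthetase that activates the nuclease RNase L, was at 0.278, 0.508 and 1.68 CPM in 24:5 libraries, against 2.27, 2.76 and 1.51 CPM in vehicle libraries. Oas2 overlapped through 24:5 replicate 3, and its lowest library rested on 7 counts, the smallest count of any member. Its log2 fold change was -1.40 (SE 0.60), and -2.46 without 24:5 replicate 3. Eif2ak2, the kinase PKR that stops translation on meeting double-stranded RNA, was at 7.24, 9.31 and 7.25 CPM in 24:5 libraries, against 14.9, 15.35 and 18.9 CPM in vehicle libraries, without overlap. Oas1a, Rsad2 and Samd9l were also without overlap, at 32.0%, 45.6% and 68.8% of the vehicle means. Cmpk2, a nucleotide kinase beside Rsad2 on chromosome 12, overlapped and was the 1 member whose highest library was 24:5 replicate 1, at 18.7 CPM.

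The enzymes of ubiquitin, ISG15 and ADP-ribose were without overlap in 6 of 7 members, with a median log2 fold change of -0.86. Rnf213 (ENSMUSG00000070327, chromosome 11, 119393100 to 119487418, plus strand), a very large ubiquitin ligase, was at 37.9, 43.3 and 38.2 CPM in 24:5 libraries, against 96.2, 87.0 and 87.1 CPM in vehicle libraries. It fell to 39.8 ± 3.04 CPM in 24:5 retinas, against 90.1 ± 5.31 CPM in vehicle retinas (SD, n = 3 each), a log2 fold change of -1.18 (SE 0.08). A noncoding gene on the opposite strand, A930037H05Rik, overlaps Rnf213 over 38631 bases and was at 6.60, 7.36 and 5.85 CPM in 24:5 libraries, against 6.37, 7.32 and 4.92 CPM in vehicle libraries. Unlike Rnf213, it did not separate the groups. Parp14, which attaches ADP-ribose to proteins, was at 20.4, 18.6 and 16.25 CPM in 24:5 libraries, against 32.5, 34.6 and 33.2 CPM in vehicle libraries, without overlap.

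Usp18, which removes ISG15 from proteins and restrains signalling at the interferon receptor, was at 3.42, 7.32 and 2.99 CPM in 24:5 libraries, against 7.50, 7.49 and 25.65 CPM in vehicle libraries. The groups were apart by a narrow margin, and the log2 fold change was -1.57 (SE 0.65), or -0.71 without vehicle replicate 3. Trim25, a ubiquitin ligase that acts on RIG-I, was at 21.5, 91.4 and 67.4 CPM in 24:5 libraries, against 32.7, 34.85 and 99.35 CPM in vehicle libraries. It was the 1 member of the role with overlap and, with Irf9, 1 of 2 members with a log2 fold change above 0, at 0.11 (SE 0.71). Parp9, Dtx3l and Isg15 were without overlap, at 50.6%, 57.2% and 59.2% of the vehicle means. Parp9 and Dtx3l, which encode partners in 1 complex, lie on opposite strands and share 682 bases, so without a stated strand setting their reads may be partly shared.

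The GTPases of innate defence were lower in all 7 members but without overlap only in Mx2 and Gbp7, and the median log2 fold change was -0.46. Mx2, a dynamin-like antiviral protein, was at 1.31, 1.61 and 0.819 CPM in 24:5 libraries, against 2.75, 1.80 and 7.72 CPM in vehicle libraries. Its log2 fold change of -1.71 (SE 0.58) was the lowest of the 41 and was -0.86 without vehicle replicate 3. Igtp, also called Irgm3, an immunity-related GTPase that regulates others of its family, was at 5.85, 24.75 and 28.5 CPM in 24:5 libraries, against 15.2, 14.5 and 48.2 CPM in vehicle libraries. Irgm1, another such regulator, was at 12.3, 30.6 and 25.4 CPM in 24:5 libraries, against 21.2, 21.6 and 74.4 CPM in vehicle libraries. In both, vehicle replicate 3 was over 2-fold above the other vehicle libraries, and 24:5 replicate 1 was the lowest of the 6. Igtp shares 7974 bases on 1 strand with Irgm2, so its counts are uncertain. Gbp2, Gbp3, Gbp7 and Iigp1 were at 55.8% to 86.1% of the vehicle means.

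The membrane, nuclear and secreted proteins were lower in all 8 members and without overlap in 6, with a median log2 fold change of -0.86. Bst2, or tetherin, which holds budding virus at the cell surface, was at 4.53, 7.36 and 4.05 CPM in 24:5 libraries, against 13.2, 11.3 and 17.7 CPM in vehicle libraries. Sp100, a component of nuclear bodies, was at 1.67, 1.74 and 1.35 CPM in 24:5 libraries, against 3.88, 3.81 and 3.28 CPM in vehicle libraries. Both kept the groups apart by a clear margin, with log2 fold changes of -1.41 (SE 0.265) and -1.20 (SE 0.21). Ifi35, Ifi44, Trim30a and Lgals3bp were also without overlap, at 50.5% to 71.7% of the vehicle means. Xaf1 and Ifi27 overlapped, at 70.5% and 72.6%.

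**Figure D3:**
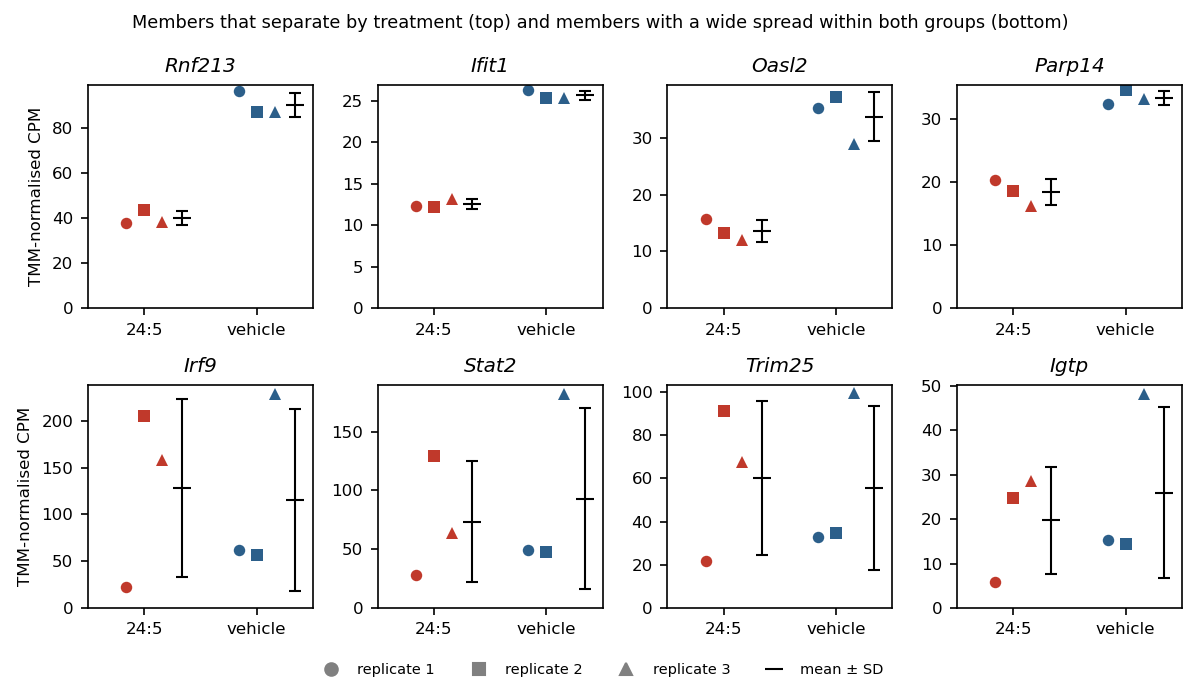
TMM-normalised CPM of 8 members in each injected library, with the 24:5 group left of the vehicle group; circles, squares and triangles are replicates 1, 2 and 3, and the black mark and bar are the mean and SD of 3 libraries. Rnf213, Ifit1, Oasl2 and Parp14 (top) separate the groups with little spread, whereas Irf9, Stat2, Trim25 and Igtp (bottom) have 1 low 24:5 library and 1 high vehicle library.

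Levels can be compared between members only per length. As CPM per kilobase of gene length in vehicle retinas, the members ran from 0.321 for Ifi44 to 24.9 for Ifit3, with a median of 4.86. Irf9 (21.4), Ifi27 (19.3) and Stat2 (15.7) stood next below Ifit3, while Sp100 (0.484), Oas2 (0.49) and Zbp1 (0.628) stood next above Ifi44. At least 10 counts were present in every library for 40 members and at least 100 counts for 29.

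The second question was how the members were arranged among the 6 injected libraries. Vehicle replicate 3 was the highest of the 6 libraries in 19 members (46.3%), beside 16.8% of all genes, and 24:5 replicate 1 the lowest in 20 (48.8%), beside 19.8%. Vehicle replicates 1 and 2 were each the highest in 10 members, and 24:5 replicates 1 and 3 each in 1, Cmpk2 and Gbp2. The lowest library was 24:5 replicate 2 in 12 members and 24:5 replicate 3 in 9, and in no member was it a vehicle library.

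The vehicle libraries themselves differed widely in some members. Vehicle replicate 3 was over 2-fold above both other vehicle libraries in 9 members (22.0%), beside 1.13% of all genes. These were the signalling factors Irf7, Irf9 and Stat2, the sensor Ddx58, the enzymes Trim25 and Usp18, and the GTPases Igtp, Irgm1 and Mx2. Vehicle replicate 3 was below both other vehicle libraries in 18 members (43.9%), near the 41.3% of all genes, so this share is not particular to the members. Ifit1, Ifit3, Oasl2, Oas1a, Oas2, Isg15 and Sp100 were among the 18. The median ratio of vehicle replicate 3 to vehicle replicate 1 was 1.02 over the 41 members, with a range from 0.565 in Oas1a to 3.72 in Irf9. Vehicle replicates 2 and 1 were close, with a median ratio of 0.976 and a range from 0.633 in Ifi35 to 1.27 in Trim30a.

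Among the 24:5 libraries, replicates 2 and 3 were both over 2-fold above replicate 1 in 6 members (14.6%), beside 2.59% of all genes. These were Igtp, Irf9, Irgm1, Stat2, Trim25 and Zbp1, of which all but Zbp1 are also among the 9 that were high in vehicle replicate 3. Irf9 had the widest range, with 24:5 replicate 2 at 9.34 times 24:5 replicate 1. Igtp, Irf1, Irf9, Irgm1, Stat2 and Trim25 had vehicle replicate 3 and 24:5 replicates 2 and 3 above the other 3 libraries (14.6%), which is near the 16.2% of all genes with that order. Cmpk2 and Gbp3 had the reverse order (4.88%, beside 14.1%).

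Libraries can also be set side by side by whether their lens genes were high or low, although they were not matched. In lens genes 24:5 replicate 1 summed to 731.5 CPM, against 1817 and 1944 CPM in vehicle replicates 1 and 2. In injury genes it summed to 756.3 CPM, against 2380 and 1848 CPM. Among the 3 libraries high in lens genes, 24:5 replicate 1 was below both vehicle replicates 1 and 2 in 40 of 41 members (97.6%), beside 36.9% of all genes, with Cmpk2 as the exception. The median ratio of 24:5 replicate 1 was 0.5 to vehicle replicate 1 and 0.564 to vehicle replicate 2. Among the 3 low in lens genes, 24:5 replicates 2 and 3 were both below vehicle replicate 3 in 37 members (90.2%), beside 35.4% of all genes, with Gbp2, Ifi27, Oas2 and Xaf1 as exceptions. The median ratio to vehicle replicate 3 was 0.56 for 24:5 replicate 2 and 0.627 for 24:5 replicate 3. Both orders held in 36 members (87.8%), beside 17.4% of all genes. These pairs were formed after the library values had been seen, and the orders carry no test. The members were chosen with this contrast known, so the orders only describe them.

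Set across that divide, some members took the opposite order. The ratio of 24:5 replicate 2 to vehicle replicate 1 reached 3.34 in Irf9 and was above 1 in 8 members, which do not include Oas2, Mx2 and Usp18, the widest-ranging members after Irf9. Without vehicle replicate 3, the log2 fold change of 24:5 over vehicle was 1.12 for Irf9, 0.83 for Trim25, 0.60 for Stat2, 0.41 for Igtp and 0.09 for Irgm1. Without 24:5 replicate 2 these 5 values were -0.365, -0.33, -1.025, -0.60 and -1.05. For Rnf213 and Ifit1 the values without any 1 library stayed between -1.245 and -1.134, and between -1.067 and -1.012.

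**Figure D4:**
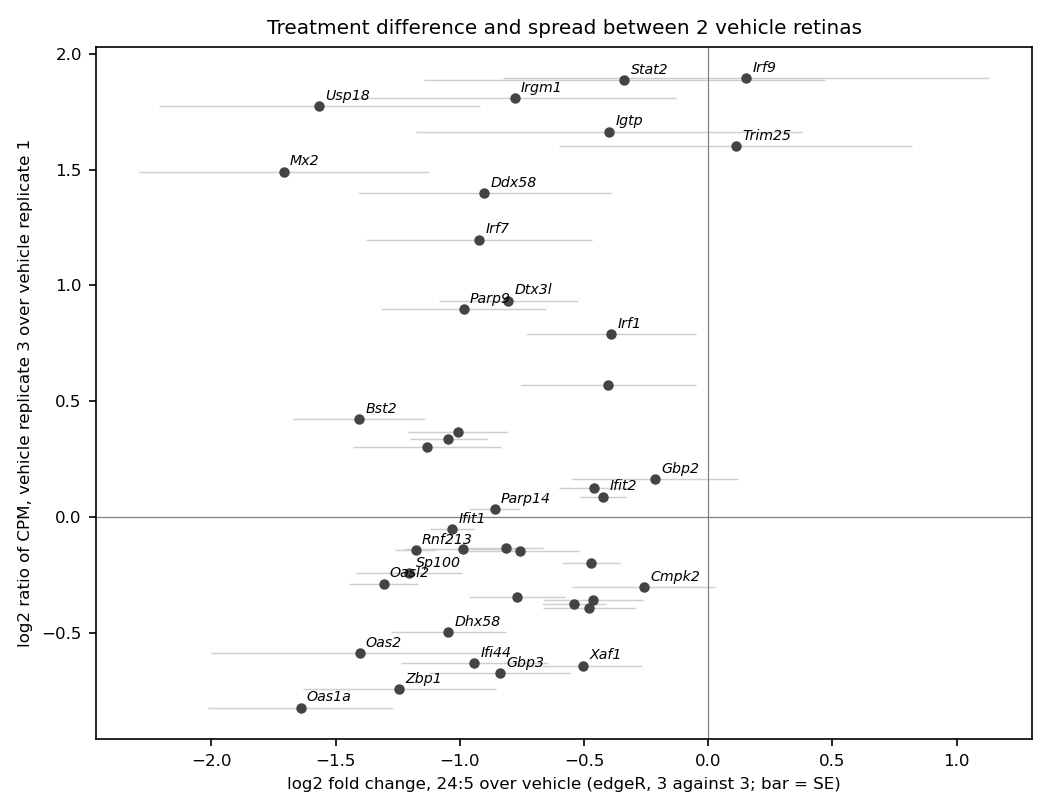
For each member, the log2 fold change of 24:5 over vehicle (horizontal axis, bar = SE) against the log2 ratio of CPM in vehicle replicate 3 to vehicle replicate 1 (vertical axis). Members at the top, such as Irf9, Stat2 and Trim25, differ widely between these 2 vehicle libraries and have wide SEs, while Rnf213, Ifit1 and Oasl2 lie near 0 on the vertical axis and below -1 on the horizontal axis. Both axes use the vehicle libraries, so no relation between them is drawn.

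Other genes of the pathway were read from lists chosen with earlier results of these data known. Of 11 interferon genes, including Ifnb1 and Ifng, 10 had no counts in any injected library, and Ifnz had 2 counts in vehicle replicate 3 alone. A count of 0 allows up to 3 counts, or 0.117 to 0.136 CPM, counting error alone, so interferon transcripts were not detectable at this depth. Of 9 genes for interferon receptors and their kinases, 8 were lower in 24:5 retinas, by at most 0.67 on the log2 scale. None passed the threshold in edgeR (0.0115% of all genes) or in DESeq2, and 3 were lower at an unadjusted p under 0.05, beside 5.16% of all genes. Ifnar1, the first chain of the type I receptor, was at 49.99, 47.7 and 49.7 CPM in 24:5 libraries, against 63.1, 52.2 and 61.2 CPM in vehicle libraries. The groups did not overlap, and the log2 fold change was -0.26 (SE 0.09). Ifnar2, Ifngr1 and Ifngr2, the other type I chain and both chains of the gamma receptor, had log2 fold changes of -0.24 (SE 0.15), -0.105 (SE 0.08) and -0.27 (SE 0.09).

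Of 13 genes that act upstream of interferon production, 9 were lower in 24:5 retinas. Of these, 6 were at an unadjusted p under 0.05, beside 5.16% of all genes. None passed the adjusted threshold in edgeR, and 3 did in DESeq2, beside 1.12% of all genes. Tlr7, an endosomal sensor of RNA, was at 1.47, 2.07 and 0.860 CPM in 24:5 libraries, against 4.80, 4.73 and 3.15 CPM in vehicle libraries. Tbk1 and Irf3, the kinase and the factor that switch on interferon genes, had log2 fold changes of 0.07 (SE 0.10) and 0.13 (SE 0.08). Of 5 feedback inhibitors, 2 were lower, 1 of them at an unadjusted p under 0.05, beside 5.16% of all genes. None passed the threshold in edgeR, against 1 in DESeq2, beside 1.12% of all genes. Socs1 was between 0.131 and 0.577 CPM in every library. Socs3, which blocks receptor kinases and also answers other cytokines, was at 4.97, 68.2 and 43.35 CPM in 24:5 libraries, against 27.8, 37.5 and 107.9 CPM in vehicle libraries. Its lowest library was 24:5 replicate 1 and its highest vehicle replicate 3, as in Irf9.

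A further list held 76 other interferon-induced genes, 72 of which were tested. Of these, 68 were lower in 24:5 retinas, with a median of -0.795. None passed the adjusted threshold in edgeR, and 16 did in DESeq2, all lower, beside 1.12% of all genes called by DESeq2. At an unadjusted p under 0.05, 38 were lower and 1 was higher, beside 5.16% and 1.44% of all genes. Ifi203, a nuclear protein of the PYHIN family, ran the other way, at 1.19, 28.6 and 50.2 CPM in 24:5 libraries, against 4.71, 6.02 and 14.2 CPM in vehicle libraries. Its log2 fold change of 1.68 (SE 1.22) was the highest in the list.

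Markers of immune cells were lower along with the members, as were markers of some other cells. All 17 microglia and macrophage markers were lower in 24:5 retinas, with a median of -1.075 on the log2 scale. Of them, 13 were at an unadjusted p under 0.05, beside 5.16% of all genes. None passed the adjusted threshold in edgeR, and 9 did in DESeq2, beside 1.12% of all genes. All 11 lens markers tested were lower (median -1.912), none at an unadjusted p under 0.05. Also lower were 11 of 12 endothelium and pericyte markers (median -0.27) and 6 of 10 Müller glia markers (-0.247). Only 3 of 9 pigment epithelium markers (0.237) and 1 of 10 rod markers (0.161) were lower. The 17 microglia and macrophage markers summed to 284.5, 224.5 and 172.5 CPM in 24:5 libraries, against 551.8, 508.2 and 333.2 CPM in vehicle libraries. No marker of this list was at 0 in every library. Ctss, a lysosomal protease and the most abundant of them, was at 50.15, 52.85 and 38.85 CPM in 24:5 libraries, against 113.8, 120.2 and 79.4 CPM in vehicle libraries. Ccr2, a receptor of infiltrating monocytes, was at 2.47, 3.47 and 0.614 CPM in 24:5 libraries, against 19.8, 19.6 and 9.54 CPM in vehicle libraries. In both genes the 24:5 libraries lay below all 3 vehicle libraries. The 10 neutrophil and monocyte markers summed to 6.36, 6.68 and 3.40 CPM in 24:5 libraries, against 27.3, 31.7 and 14.2 CPM in vehicle libraries. The 14 T and NK cell markers summed to 5.53, 2.83 and 1.80 CPM in 24:5 libraries, against 8.77, 5.65 and 5.10 CPM in vehicle libraries. The marker sum of microglia was lower in vehicle replicate 3 than in the other vehicle libraries. In that library 18 members were also below both other vehicle libraries (43.9%, beside 41.3% of all genes). Irf9, Stat2 and the other 7 members named above were over 2-fold above both there (22.0%, beside 1.13%). In whole retina, fewer cells of a type and less RNA per cell cannot be told apart. The part of these cell types in the members' values was not tested.

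The uninjected retinas gave an independent view of the same genes. Values are FPKM (fragments scaled to gene length and library size), which were tested with limma on log2(FPKM + 1), and fold changes on that scale understate those of low genes. Mean FPKM over the 10 libraries ran from 0.0888 for Ifi44 to 13.4 for Ifi27. Only the 25 members with a mean FPKM of at least 1 were tested, and the other 16, among them Oas1a, Oas2, Mx2, Zbp1 and Parp14, were below it. None of the 25 passed the adjusted threshold in any of the 3 comparisons, and none reached an unadjusted p of 0.05. Among all 13786 genes tested the share called was 0.0% in each comparison, and 3.65%, 2.19% and 2.14% were under an unadjusted p of 0.05 for age, genotype, and wildtype at 18 months against mutant. With edgeR on reads recovered from the FPKM values, which brought 39 or 40 members into the test, none was called either. The only member under an unadjusted edgeR p of 0.05 was 1 of 40 for genotype, beside 185 of 17606 genes.

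For age, 18 of the 25 members were higher at 18 months than at 12 months, beside 49.4% of all genes tested. The median log2 fold change was 0.09, beside -0.001 for all genes, and lay between 0.010 (without 12-month replicate 2) and 0.221 (without 12-month replicate 1) when 1 library was left out. Ifit1 was at 4.22, 1.85, 6.78 and 2.09 FPKM in wildtype retinas at 18 months, against 3.33, 1.53 and 1.96 FPKM in wildtype retinas at 12 months. The groups overlapped, and the difference of 0.45 (SE 0.44) had a limma adjusted p of 0.9999. Ifi27, a small mitochondrial membrane protein, was at 18.9, 11.3, 14.4 and 12.4 FPKM at 18 months, against 12.4, 9.76 and 12.05 FPKM at 12 months, a difference of 0.28 (SE 0.24). Gbp7, a guanylate-binding protein, was at 1.26, 1.17, 1.59 and 1.20 FPKM at 18 months, against 1.24, 0.805 and 0.913 FPKM at 12 months, a difference of 0.22 (SE 0.16). Parp9 was at 1.39, 1.39, 1.82 and 1.55 FPKM at 18 months, against 1.53, 1.07 and 1.20 FPKM at 12 months, a difference of 0.17 (SE 0.15). In each of these the 12-month replicate 1 lay within the range at 18 months.

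For genotype, 21 of the 25 members were higher in Elovl2 mutant retinas than in wildtype retinas of the same age, beside 47.7% of all genes tested. The median was 0.22, beside -0.006 for all genes. It was 0.03 without mutant replicate 3, 0.106 without wildtype replicate 2 and 0.363 without mutant replicate 1. In the last fit 7 of the 25 members were under an unadjusted limma p of 0.05, beside 472 of 13786 genes. None of the members was called in it, beside 0.0% of all genes. Ifit3 was at 7.39, 11.8 and 23.1 FPKM in mutant retinas, against 12.4, 5.96 and 8.46 FPKM in wildtype retinas, a difference of 0.52 (SE 0.40). Cmpk2 was at 4.21, 4.85 and 6.13 FPKM in mutant retinas, against 4.41, 3.33 and 4.50 FPKM in wildtype retinas, a difference of 0.25 (SE 0.15). Both genes were highest in mutant replicate 3 and overlapped. Gbp7 was at 0.928, 1.60 and 2.05 FPKM in mutant retinas, against 1.24, 0.805 and 0.913 FPKM in wildtype retinas, a difference of 0.33 (SE 0.17). Trim25 was the 1 tested member without overlap, lower at 6.09, 5.81 and 5.68 FPKM in mutant retinas, against 6.66, 7.64 and 6.22 FPKM in wildtype retinas. Its difference of -0.19 (SE 0.10) had an adjusted p of 0.9998 in limma, beside 2.92% of all genes with no overlap in that direction. Iigp1, too low to be tested, was without overlap the other way (3.05% of all genes), at 0.607, 0.375 and 0.893 FPKM in mutant retinas, against 0.280, 0.0814 and 0.283 FPKM in wildtype retinas.

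Between wildtype retinas at 18 months and mutant retinas at 12 months, age and genotype both differ. Of the 25 members 18 were lower in the wildtype retinas at 18 months, beside 46.8% of all genes tested. The median was -0.10, beside 0.006 for all genes, and was 0.08 without mutant replicate 3, -0.265 without mutant replicate 1, -0.175 without 18-month replicate 3 and -0.022 without 18-month replicate 4. Isg15 was at 4.04, 2.37, 3.96 and 2.84 FPKM in wildtype retinas at 18 months, against 2.27, 4.45 and 7.38 FPKM in mutant retinas. The difference was -0.32 (SE 0.30), and 0.007 without mutant replicate 3. Igtp was at 2.86, 2.14, 3.52 and 2.48 FPKM in wildtype retinas at 18 months, against 2.63, 3.28 and 5.01 FPKM in mutant retinas, a difference of -0.29 (SE 0.20). Cmpk2 and Trim25 differed by -0.15 (SE 0.14) and 0.11 (SE 0.10). The genotype and age comparisons share the wildtype libraries at 12 months, and this one shares libraries with both.

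Microglia and macrophage markers moved with the members in all 3 comparisons, although none of the 12 tested was called or under an unadjusted p of 0.05 in limma. For age 11 were higher at 18 months, beside 49.4% of all genes tested, with a median of 0.094. For genotype 11 were higher in mutant retinas, beside 47.7% of all genes, with a median of 0.246. Between wildtype retinas at 18 months and mutant retinas 11 were lower in the wildtype retinas, beside 46.8% of all genes, with a median of -0.093. Müller glia markers moved the same way, in 7 of 10 for age, 9 of 10 for genotype and 8 of 10 for the last. Endothelium and pericyte markers did so in 5, 7 and 7 of 9. Pigment epithelium markers were higher in 6, 5 and 7 of 8. All 4 blood markers tested were lower for age and for genotype. The part of these cells in the members' values was not tested.

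**Figure D5:**
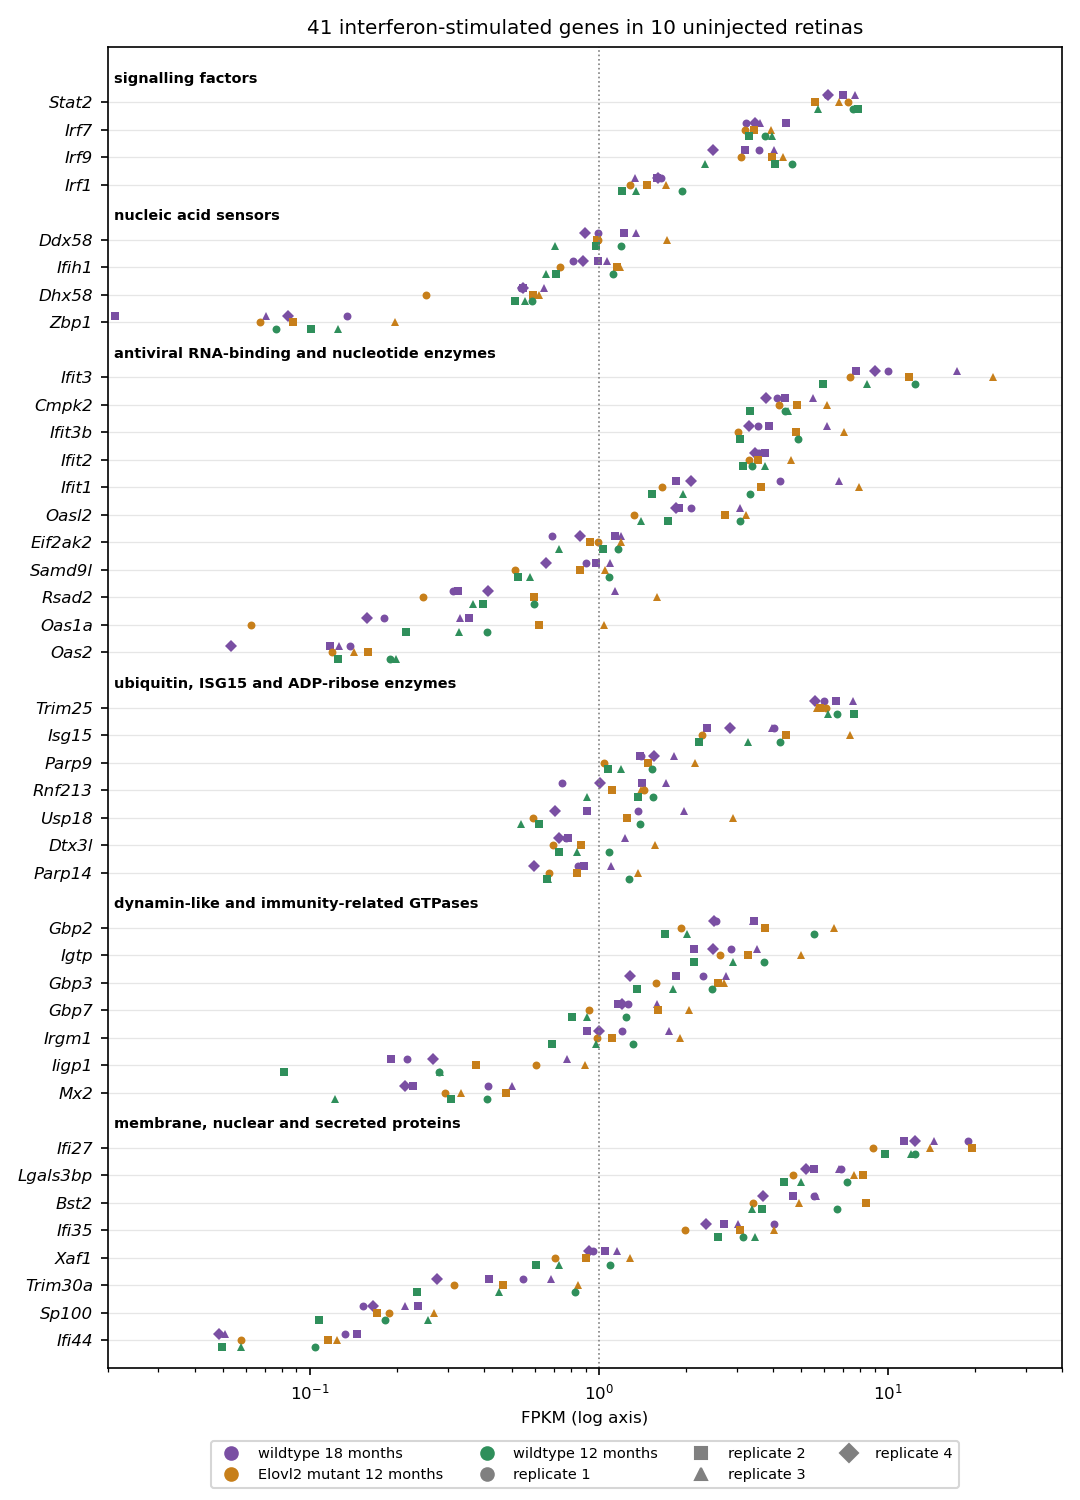
FPKM (log axis) of the 41 members in each of 10 uninjected retinas, grouped by role and ordered by mean; purple (upper) is wildtype at 18 months, orange (middle) Elovl2 mutant at 12 months and green (lower) wildtype at 12 months, with symbols for replicates. The dotted line is the filter at 1 FPKM, which applies to the mean over libraries. The colours overlap in nearly every row, and the orange triangle, mutant replicate 3, is often the rightmost symbol.

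The uninjected libraries also differed among themselves across the members. Mutant replicate 3 was the highest of the 3 mutant libraries in 33 of 41 members (80.5%), beside 34.2% of all genes tested, and the highest of all 10 libraries in 24. Wildtype replicate 3 at 18 months was the highest of its 4 in 28 members (68.3%), beside 22.0% of all genes. Wildtype replicate 1 at 12 months was the highest of its 3 in 31 members (75.6%), beside 17.5% of all genes. Usp18 shows the pattern: it was at 1.36, 0.909, 1.966 and 0.705 FPKM in wildtype retinas at 18 months, 0.594, 1.25 and 2.91 FPKM in mutant retinas, and 1.39, 0.619 and 0.538 FPKM in wildtype retinas at 12 months. Irf9 and Stat2 varied less here than in the injected libraries, from 2.34 to 4.65 FPKM and from 5.60 to 7.88 FPKM over the 10 libraries.

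Microglia markers followed that order in part. Their sum was 78.6, 57.8, 58.4 and 72.8 FPKM in wildtype retinas at 18 months, 46.9, 100.1 and 79.5 FPKM in mutant retinas, and 81.6, 44.0 and 60.7 FPKM in wildtype retinas at 12 months. It was lowest in mutant replicate 1 among the mutants, as were 34 members. Among the wildtype libraries at 12 months it was highest in replicate 1 and lowest in replicate 2, as were 31 and 27 members. It was, however, higher in mutant replicate 2 than in mutant replicate 3, and higher in wildtype replicates 1 and 4 at 18 months than in replicate 3. Depth likewise differed: mutant replicate 3 was the shallowest of its group, with 14988833 reads, and wildtype replicate 1 at 12 months the deepest of its group, with 27082456. Wildtype replicate 3 at 18 months had 15254068. The part of microglia and of depth in this pattern was not tested.

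The members lie on 16 chromosomes, with 9 members on chromosome 11. Groups of neighbours within 200000 bases were Ifit2, Ifit3, Ifit3b and Ifit1 on chromosome 19, Gbp7, Gbp3 and Gbp2 on chromosome 3, Parp14, Dtx3l and Parp9 on chromosome 16, Rsad2 and Cmpk2 on chromosome 12, and Oas2 and Oas1a on chromosome 5. Irf9 shares 123 bases on 1 strand with Rnf31, which was at 21.8, 45.7 and 43.8 CPM in 24:5 libraries, against 26.95, 28.8 and 48.4 CPM in vehicle libraries. Neighbours did not always share an order of libraries: vehicle replicate 3 was highest in Rsad2 and the lowest of the vehicle libraries in Cmpk2. It was likewise highest of the 3 in Gbp2 and Gbp7 and the lowest of the 3 in Gbp3.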

How the data were processed

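RNA from whole retinas was purified on poly-T beads and made into strand-marking libraries, per the labels' protocols. The authors deposited raw counts per gene for 6 injected retinas and FPKM values with symbols and mm10 positions for 10 uninjected retinas. HISAT2 2.2.1, featureCounts 2.0.6 and DESeq2 1.42.0 are named in the submitters' processing notes without a role, and the annotation release and strand setting were not given in the sources used here. Structural RNAs held 8.54% to 13.4% of the deposited counts, and 37 mitochondrial genes had 0.

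Counts were tested with edgeR 4.0.16 in R 4.3.3 (quasi-likelihood, robust, TMM, filterByExpr) and FPKM values with limma 3.58.1 (trend, robust, pseudocount 1, mean of at least 1, all 3 groups in 1 fit), two-sided, with Benjamini-Hochberg adjustment over all genes tested and a threshold of 0.05. Both were run on simulated counts with 1 dispersion for all genes and no shared differences between libraries. That setting is simpler than these libraries and does not give their error rates. FPKM times gene length gave whole reads (100.0% of values within 0.02). No 2 libraries of a group agreed within counting noise. Whether replicate numbers pair the libraries is not labelled, and the main fits did not pair them. The tables were normalised separately and are never compared in level. Alternatives were DESeq2, other size factors, pseudocounts and filters, a replicate block, and leaving out each library. Leaving out libraries for the count of members without overlap was added after seeing the data.

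The members and lists were chosen with earlier results of these data known. Values per library are given for members past the threshold, the 10 with the smallest p, the 6 with the widest range within each injected group and the signalling factors, and in uninjected retinas for the 4 with the smallest p in each comparison. Pathway genes were taken from a short list or by smallest p, and markers by level. Ddx58, Tbk1, Ifi203, Rnf31 and A930037H05Rik, and Usp18, Irf9, Stat2 and Iigp1 in uninjected retinas, were chosen after their values were seen.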

Additional observations from a re-analysis of the deposited data

Results flagged for a closer look

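In the 4 uninjected wildtype retinas at 18 months, replicate 3 stood apart from the other 3 libraries in 5 of the 41 members, by a gap that filled most of the group's range. Chance would mark about 1 in 20 members in this way, and the 5 values come from 1 library. Rsad2 was at 1.136 FPKM there, against 0.313, 0.327 and 0.412 FPKM in replicates 1, 2 and 4. Iigp1 was at 0.7791 FPKM, against 0.218, 0.191 and 0.267 FPKM. Dtx3l was at 1.231 FPKM, against 0.771, 0.782 and 0.729 FPKM. Dhx58 was at 0.6478 FPKM, against 0.540, 0.547 and 0.546 FPKM. Irf1 was low instead, at 1.333 FPKM, against 1.64, 1.595 and 1.604 FPKM. The flag takes no account of counting error. In recovered reads, Rsad2 had 79 in replicate 3, against 20, 19 and 30 in replicates 1, 2 and 4. Dhx58 had only 34, against 26, 24 and 30, and Irf1 had 85, against 96, 85 and 107. For Dhx58 and Irf1 the flag thus rests on small differences in reads. The cause was not tested.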

How the results depend on the processing

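The direction of the member median for 24:5 over vehicle held under every alternative run, while the counts past the adjusted threshold of 0.05 did not hold. Because this contrast chose the members and each run used the same libraries, that direction describes them and is not independent evidence. Against 2 genes called, both members, DESeq2 called 246 genes and 14 members, edgeR without a filter on low counts called 85 genes and 6 members, and the replicate block called 88 genes and 4 members (Rnf213, Ifit1, Oasl2 and Parp14). No label says whether replicate numbers pair the libraries. Same-numbered 24:5 and vehicle libraries deviated from their group means with correlations of 0.398, -0.203 and 0.422. These correlations cannot decide whether same-numbered libraries share an animal. Leaving out 1 library gave 0 to 105 genes called and 0 to 4 members called, with 105 and 4 without vehicle replicate 3. The count of members without overlap was 26 to 30 when 1 library was left out, beside 9.49% to 15.4% of all genes.

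In the uninjected retinas no alternative called a member, and the replicate block called no gene. Among all genes, edgeR on recovered reads called 1 for age and 3 for wildtype at 18 months against mutant, and without a filter on low values limma called 4 for age, 4 for genotype and 1 for wildtype at 18 months against mutant. A fit of only the 2 groups called 2 for the last. The difference of Isg15 between wildtype at 18 months and mutant ran from -0.671 to 0.007 when 1 library was left out, above 0 without mutant replicate 3. On the gene strand alone 7 members held the response element core. The causes of these shifts were not tested.

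Of the other values, 347 kept their direction or moved within their spread and 2 moved further, Oas2 to -2.463 without 24:5 replicate 3 and Mx2 to -0.858 without vehicle replicate 3. With 3 libraries a group, a difference such as that of Irf9, with an SE of 0.98, could not be resolved in either direction. Low counts limit Oas2 and Zbp1, and FPKM below 1 left 16 members untested.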
